A study of Mus musculus with 6 samples.

Results

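The genes described here are 37 mouse genes of homologous recombination and of the Fanconi pathway, listed by gene symbol for their function, with earlier results of these data known. Each symbol matched 1 of the 47729 genes listed in each table, and all 37 had a mean of at least 1 TPM (the share of all transcripts, scaled to 1000000 and corrected for transcript length), so that all entered the test. Messenger RNA was sequenced from activated CD8+ T cells of mouse spleen after 24 h with blebbistatin at 2 µM (3 libraries) or with vehicle (3 libraries). Blebbistatin inhibits non-muscle myosin II, which pulls on actin filaments, and the series was set up to measure how modulating the cytoskeleton affects these cells. The labels give no strain, genotype, age or sex, do not name the vehicle or the stimulus that activated the cells, and leave it unsaid whether the 3 replicates of a group were separate animals or cultures. The p-values below therefore measure only the spread between these libraries, which may be technical.

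Homologous recombination repairs a broken chromosome by copying the intact sister chromatid, and it works mainly in the S and G2 phases of the cell cycle. The broken ends are sensed and cut back to single strands, the BRCA proteins prepare them for strand exchange, helicases and translocases shape the joined molecules, and nucleases cut the junctions apart. The Fanconi pathway unhooks crosslinks between DNA strands by tagging the pair FANCD2 and FANCI with ubiquitin, and then hands the break to recombination. Activated CD8+ T cells divide rapidly and depend on these pathways while they copy their genomes.

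None of the 37 genes passed the threshold between blebbistatin and vehicle (limma on log2(TPM + 1), adjusted p at most 0.05), while 244 of 13372 tested genes did (1.82%), 1.40% higher and 0.426% lower with blebbistatin. At an unadjusted p of at most 0.05 there were 4 repair genes, against 22.9% of all tested genes. The log2 fold changes of the repair genes, blebbistatin over vehicle, ran from -0.32 to 0.25 with 21 above 0 and 16 below, and their median was 0.01, beside 0.03 over all tested genes. The 95% confidence interval of each of the 37 genes lay within a 1.5-fold change in either direction. The widest interval reached 0.35 log2 units to either side of its estimate (Fancc), and the narrowest 0.14 (Chek1). The groups did not overlap in 6 repair genes, 2 higher and 4 lower with blebbistatin, or 16.2% against 31.0% of all tested genes.

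**Figure D1:**
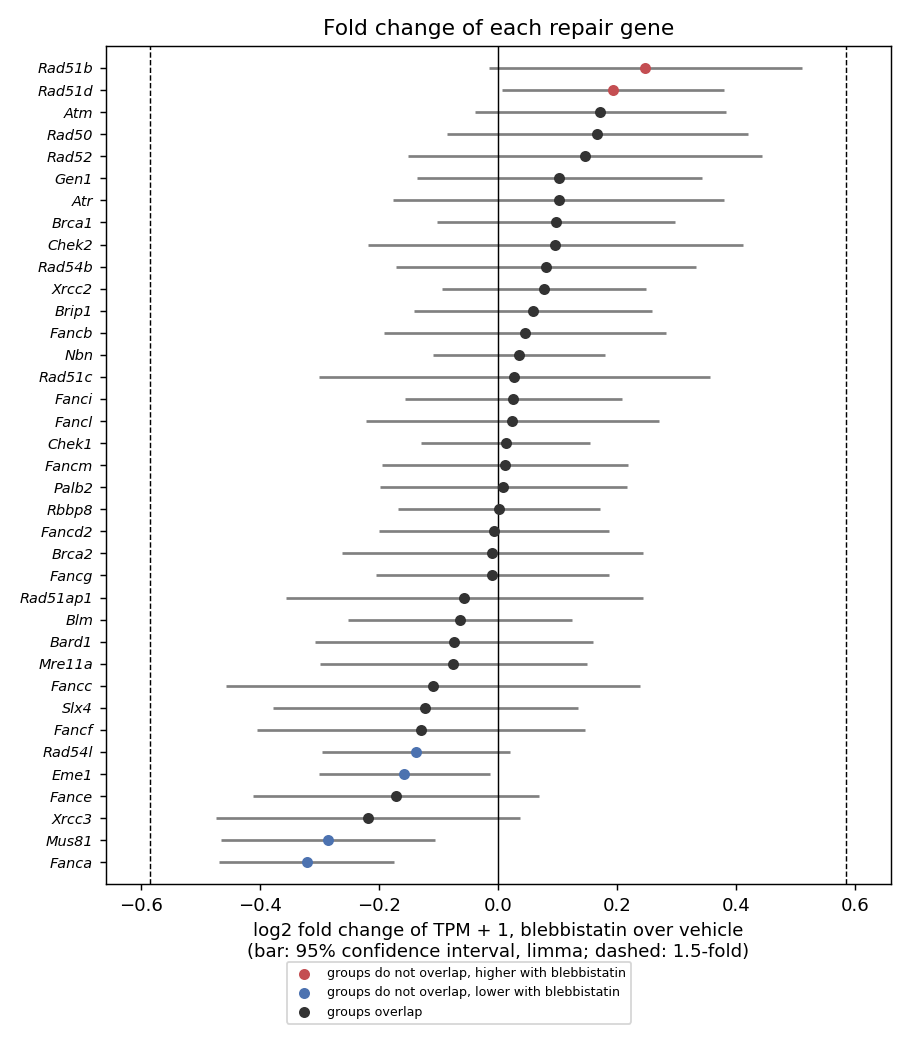
Log2 fold change of TPM + 1, blebbistatin over vehicle, for each of the 37 repair genes (point) with its 95% confidence interval from limma (bar). All bars lie between the dashed lines that mark a 1.5-fold change, and the genes whose groups did not overlap (coloured points) are Rad51b and Rad51d above 0 and Fanca, Mus81, Eme1 and Rad54l below.

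Coverage and FPKM together imply 18400000 to 19900000 fragments in a library. Between 52 and 3687 fragments lay on a repair gene in a library, and 33 of the 37 genes had at least 200 in every library. The cells carried the markers of their label, with Cd8a at 429 ± 3.49 TPM with blebbistatin and 412 ± 3.005 TPM with vehicle (all errors are SDs over the 3 libraries of a group), and Myh9, a myosin heavy chain that blebbistatin acts on, did not pass (377 ± 29.4 and 371 ± 22.5 TPM). Platelet markers summed to 140.4 to 157.5 TPM with blebbistatin and 61.8 to 71.1 TPM with vehicle, and 5 of 8 tested passed, all higher. B cell markers summed to 638 to 732 TPM with blebbistatin and 616 to 637 TPM with vehicle, and 2 of 6 tested passed, Igkc and H2-Eb1, both higher. Most of that sum was Ighm, which lay lower without overlap (477.5 ± 12.6 TPM with blebbistatin and 500 ± 7.77 TPM with vehicle) and did not pass. Markers of myeloid cells summed to 61.2 to 90.5 TPM with blebbistatin and 84.6 to 86.0 TPM with vehicle, nearly all of it Cst3, and S100a9 was at 0 in every library. The part of other cells in the values of the repair genes was not tested, and in such bulk samples fewer cells of a type and less RNA per cell cannot be told apart.

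The repair genes spanned a wide range of levels. Rad51b had the lowest mean over the 6 libraries (4.93 TPM) and Rad51ap1 the highest (82.1 TPM), with a median over genes of 25.8 TPM. Only 4 genes were under 10 TPM (Rad51b, Rad51c, Fancc and Fancf), 24 lay between 10 and 40 TPM, and 9 lay above 40 TPM. Levels of all 37 genes in every library are shown in the plot of TPM by role.

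**Figure D2:**
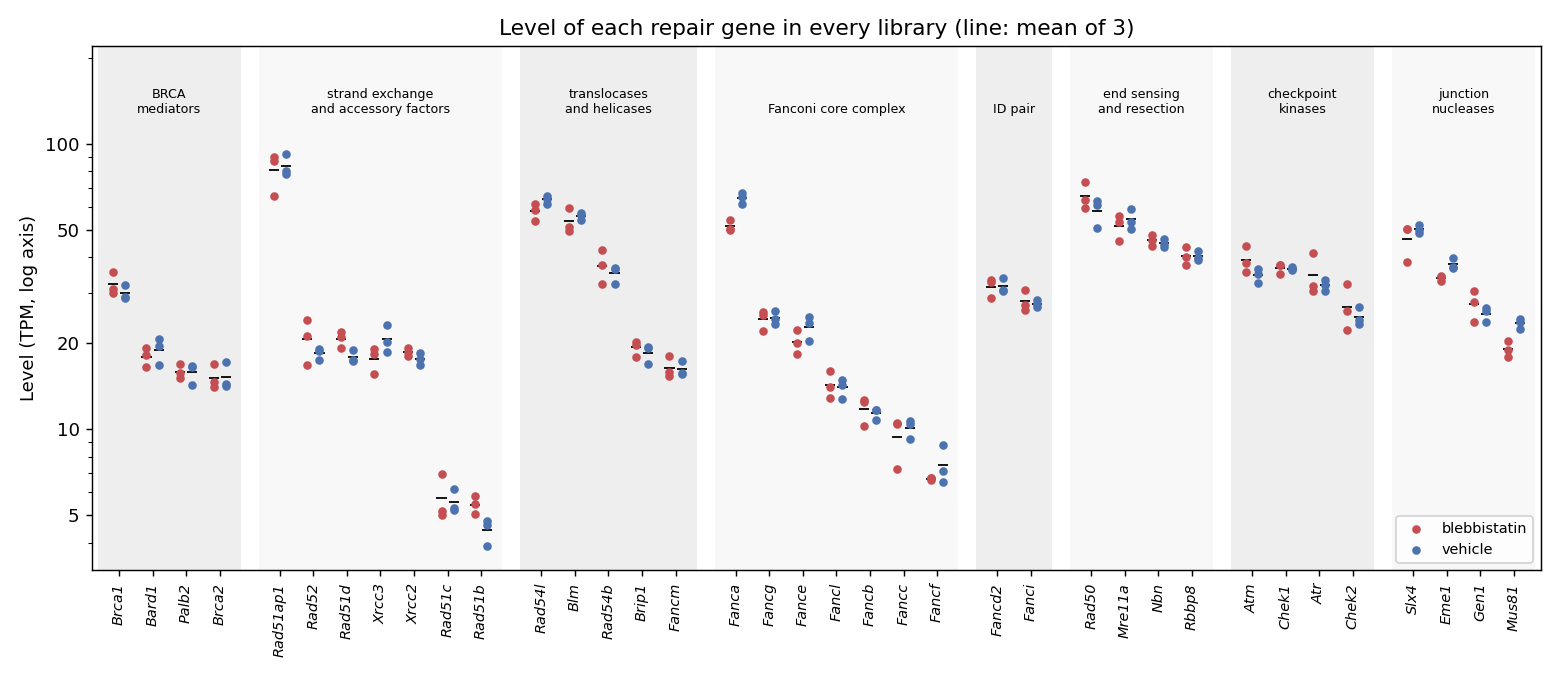
Level in TPM on a log axis of each of the 37 repair genes in every library, grouped by role and ordered by mean level within a role. Red points are the 3 blebbistatin libraries, blue points the 3 vehicle libraries and short lines the group means. Rad51ap1 stands highest and Rad51b lowest, and within most genes the points of both groups intermingle.

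Promoters were compared for short sequences that cell cycle genes often carry, namely the cores TTCCCGC and TTGGCGC bound by E2F factors, which drive S phase genes, the core CCAAT bound by NF-Y, and the core TTTGAA of the cell cycle element CHR, each on both strands. RefSeq promoter windows of GRCm38.p6, from 250 bases before to 50 after a start site, were at hand for 30 of the 37 genes. The core TTCCCGC stood in 12 of their 33 windows (36.4%), against 8.45% of the windows of tested genes and 4.6% of all 32851 windows. The core CCAAT stood in 20 windows (60.6%, against 38.1% of the windows of tested genes and 37.4% of all windows). TTGGCGC stood in 3 windows (9.09%, against 4.25% and 2.45%) and TTTGAA in 3 (9.09%, against 12.1% and 17.9%). The cores TTGGCGC and CCAAT overlapped in 1 window, that of Fancf. A match is a description of these letters and not evidence of binding. The windows of Fanca, the repair gene nearest to the threshold, Brca2, Chek2 and Fancm are shown over the 250 bases before the start, 5′ to 3′ on the strand of the gene, as examples of TTCCCGC alone (Brca2), TTCCCGC with CCAAT (Chek2 and Fancm), and CCAAT alone (Fanca). Other windows held other combinations or no core, such as both E2F cores in Rad51c and none of the 4 cores in Mus81. Capitals mark the cores TTCCCGC and CCAAT, or their reverse complements GCGGGAA and ATTGG. The windows lie at chr8:123318577-123318826 on the minus strand (Fanca), and on the plus strand at chr5:150522371-150522620 (Brca2), chr5:110839733-110839982 (Chek2) and chr12:65075353-65075602 (Fancm).
Fanca: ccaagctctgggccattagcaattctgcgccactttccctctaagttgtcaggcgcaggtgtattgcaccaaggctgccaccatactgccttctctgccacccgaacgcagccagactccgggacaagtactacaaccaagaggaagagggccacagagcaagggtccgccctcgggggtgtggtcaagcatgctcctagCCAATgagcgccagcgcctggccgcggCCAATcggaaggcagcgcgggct
Brca2: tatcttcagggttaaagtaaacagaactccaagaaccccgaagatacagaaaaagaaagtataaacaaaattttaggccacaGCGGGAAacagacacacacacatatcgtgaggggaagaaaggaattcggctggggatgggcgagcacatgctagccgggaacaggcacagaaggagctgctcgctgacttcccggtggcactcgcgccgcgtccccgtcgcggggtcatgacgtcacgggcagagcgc
Chek2: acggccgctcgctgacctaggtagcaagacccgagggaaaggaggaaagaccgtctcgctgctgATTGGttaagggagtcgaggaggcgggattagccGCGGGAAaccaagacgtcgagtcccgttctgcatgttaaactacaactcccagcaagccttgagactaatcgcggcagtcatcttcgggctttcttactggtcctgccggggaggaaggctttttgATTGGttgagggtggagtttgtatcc
Fancm: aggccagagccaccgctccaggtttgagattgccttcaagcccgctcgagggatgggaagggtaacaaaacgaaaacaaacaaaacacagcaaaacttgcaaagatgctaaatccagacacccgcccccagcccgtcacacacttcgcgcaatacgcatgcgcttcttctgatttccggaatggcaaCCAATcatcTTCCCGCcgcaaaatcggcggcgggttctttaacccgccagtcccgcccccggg

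The BRCA mediators are BRCA1, a ubiquitin ligase that with its partner BARD1 steers a break toward recombination, and BRCA2, which PALB2 brings to BRCA1 and which prepares the single strands for exchange. Brca1, the member with the highest level, had 35.6, 30.9 and 30.03 TPM with blebbistatin and 28.9, 29.0 and 31.9 TPM with vehicle. Blebbistatin 1 stood above the other 5 libraries and the groups overlapped. The log2 fold change of Brca1 was 0.10 (SE 0.09, limma, adjusted p = 0.516). Bard1 averaged 17.95 ± 1.32 TPM with blebbistatin and 18.97 ± 1.99 TPM with vehicle, Palb2 15.9 ± 0.885 and 15.8 ± 1.302 TPM, and Brca2 15.1 ± 1.52 and 15.3 ± 1.67 TPM. The levels of Brca2 and Palb2, which act as a pair, were nearly equal, with a ratio of 0.95 ± 0.043 with blebbistatin and 0.975 ± 0.195 with vehicle. All 4 genes had overlapping groups.

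RAD51B, RAD51C, RAD51D, XRCC2 and XRCC3 form complexes that assist strand exchange, and RAD51AP1 and RAD52 bind DNA as accessory factors. Of these 7 genes, 5 had log2 fold changes above 0 and 2 below. Rad51d (chromosome 11, 82876434 to 82890614 in GRCm38) had 19.2, 21.9 and 20.97 TPM with blebbistatin and 18.99, 17.3 and 17.5 TPM with vehicle. Rad51b (chromosome 12, 79297351 to 79508656) had 5.46, 5.81 and 5.03 TPM with blebbistatin and 4.78, 4.597 and 3.90 TPM with vehicle. In both genes all 3 blebbistatin libraries stood above all 3 vehicle libraries, though for Rad51d the gap between blebbistatin 1 and vehicle 1 was small. The log2 fold change was 0.19 for Rad51d (SE 0.08, limma, adjusted p = 0.208) and 0.25 for Rad51b (SE 0.11, adjusted p = 0.239), and neither passed. Rad51b rested on 137 to 200 fragments a library.

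Rad51ap1 had 89.6, 65.6 and 87.2 TPM with blebbistatin and 92.0, 78.4 and 80.1 TPM with vehicle. Its lowest value was blebbistatin 2 and its highest vehicle 1, so the groups overlapped (log2 fold change -0.06, SE 0.13, limma, adjusted p = 0.812). Within these complexes the level differed widely, since Rad51c, which belongs to more than 1 of them, averaged 5.72 ± 1.09 TPM with blebbistatin and 5.56 ± 0.544 TPM with vehicle, while its partner Xrcc3 averaged 17.6 ± 1.76 and 20.7 ± 2.30 TPM. Xrcc2 averaged 18.6 ± 0.622 TPM with blebbistatin and 17.6 ± 0.905 TPM with vehicle, and Rad52 20.7 ± 3.63 and 18.4 ± 0.854 TPM. The blebbistatin libraries of Rad52 spanned 16.8 to 24.1 TPM, a range that covered all 3 vehicle values.

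Translocases and helicases remodel the joined DNA: RAD54L and RAD54B move along duplex DNA, BLM dissolves junctions, BRIP1 unwinds DNA with BRCA1, and FANCM moves replication forks and anchors the Fanconi core. Rad54l (chromosome 4, 116094264 to 116123690) had 61.3, 53.7 and 58.8 TPM with blebbistatin and 61.6, 64.1 and 65.6 TPM with vehicle. The groups did not overlap, but blebbistatin 1 and vehicle 1 nearly met. Its log2 fold change was -0.14 (SE 0.07, limma, adjusted p = 0.266). Exons of Lrrc41 on the opposite strand cover 15.4% of the exon length of Rad54l, and Lrrc41 averaged 24.5 ± 3.89 TPM with blebbistatin and 23.8 ± 1.00 TPM with vehicle. The kit does not mark the strand, so the reads of the shared stretch cannot be told apart. Blm averaged 53.5 ± 5.43 TPM with blebbistatin and 55.8 ± 1.51 TPM with vehicle, Brip1 19.3 ± 1.20 and 18.5 ± 1.34 TPM, and Fancm 16.4 ± 1.40 and 16.3 ± 0.935 TPM. Rad54b averaged 37.3 ± 5.04 TPM with blebbistatin and 35.1 ± 2.43 TPM with vehicle, and its values are uncertain because 35.9% of its exon length is shared with other genes, mostly with Fsbp on the same strand.

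The Fanconi core complex holds the ubiquitin ligase FANCL with FANCB and the subunits FANCA, FANCG, FANCC, FANCE and FANCF around it. Of the 7 core genes, 5 had log2 fold changes below 0 and 2 above, with a median of -0.11. Fanca, on chromosome 8 at 123268300 to 123318576, had the smallest p of all 37 genes. It had 50.05, 54.2 and 49.9 TPM with blebbistatin and 64.8, 61.6 and 66.9 TPM with vehicle, so the highest blebbistatin library stood well below the lowest vehicle library. The log2 fold change of Fanca was -0.32 (SE 0.06, limma, adjusted p = 0.0571), with an interval from -0.47 to -0.17, and it ranked 287th of the 13372 genes by p. It passed among protein-coding genes alone (adjusted p = 0.0455), without blebbistatin 2 (adjusted p = 0.0277) and once length and GC content of the transcripts were corrected for (adjusted p = 0.0213), but in 17 of 21 alternatives it did not. Its adjusted p ran from 0.00304 with array weights to 0.199 without blebbistatin 3, and was 0.194 without vehicle 1, 0.191 without vehicle 3 and 0.163 with a replicate block. Exons of Zfp276 on the opposite strand cover 10.5% of its exon length, and Zfp276 averaged 6.77 ± 1.29 TPM with blebbistatin and 9.62 ± 1.26 TPM with vehicle.

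The other core genes had overlapping groups. Fancg averaged 24.3 ± 2.00 TPM with blebbistatin and 24.5 ± 1.29 TPM with vehicle, Fance 20.2 ± 1.97 and 22.8 ± 2.22 TPM, Fancl 14.3 ± 1.61 and 14 ± 1.12 TPM, and Fancb 11.8 ± 1.33 and 11.4 ± 0.501 TPM. Fancf averaged 6.70 ± 0.0421 TPM with blebbistatin and 7.47 ± 1.18 TPM with vehicle, and Fancc 9.40 ± 1.89 and 10.1 ± 0.769 TPM. Fancc rested on the fewest fragments of the repair genes, 52 to 65 a library, and had the largest spread with blebbistatin (coefficient of variation 20.1%). Fanca thus stood at a higher transcript level than each of the other 6 core genes in both groups.

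The transcripts of FANCD2 and FANCI, the pair that the core complex tags, had similar levels. Fancd2 had 33.3, 28.7 and 32.7 TPM with blebbistatin and 30.7, 33.9 and 30.5 TPM with vehicle, and the groups overlapped (log2 fold change -0.01, SE 0.08, limma, adjusted p = 0.971). Fanci averaged 28.0 ± 2.36 TPM with blebbistatin and 27.4 ± 0.752 TPM with vehicle. The ratio of Fancd2 to Fanci was 1.13 ± 0.064 with blebbistatin and 1.15 ± 0.043 with vehicle. Exons of Polg on the opposite strand cover 15.95% of the exon length of Fanci.

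End sensing and resection rest on the nuclease MRE11 (Mre11a), the coiled ATPase RAD50 and their partner NBN, and on CtIP, the product of Rbbp8, which starts resection. Rad50, the highest of them, had 73.3, 63.4 and 59.5 TPM with blebbistatin and 50.8, 60.8 and 62.8 TPM with vehicle. Blebbistatin 1 stood highest and vehicle 1 lowest, and the other 4 libraries overlapped (log2 fold change 0.17, SE 0.11, limma, adjusted p = 0.381). Mre11a averaged 51.5 ± 5.35 TPM with blebbistatin and 54.3 ± 4.43 TPM with vehicle, Nbn 45.9 ± 1.92 and 44.8 ± 1.54 TPM, and Rbbp8 40.4 ± 2.86 and 40.3 ± 1.57 TPM. The transcripts of the 3 subunits therefore stood at similar levels. The ratio of Rad50 to Mre11a was 1.27 ± 0.140 with blebbistatin and 1.07 ± 0.128 with vehicle, and that of Nbn to Mre11a 0.896 ± 0.060 and 0.828 ± 0.038. Protein was not measured.

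The checkpoint kinases ATM, which answers double-strand breaks, and ATR, which answers single-stranded DNA at stalled forks, act through CHEK2 and CHEK1. Atm had 43.7, 35.6 and 38.3 TPM with blebbistatin and 32.5, 34.95 and 36.4 TPM with vehicle. Blebbistatin 1 was the highest, while blebbistatin 2 lay between vehicle 2 and vehicle 3 (log2 fold change 0.17, SE 0.09, limma, adjusted p = 0.294). Atr averaged 34.6 ± 6.04 TPM with blebbistatin and 31.9 ± 1.35 TPM with vehicle, Chek1 36.8 ± 1.57 and 36.4 ± 0.444 TPM, and Chek2 26.8 ± 5.10 and 24.8 ± 1.83 TPM. All 4 log2 fold changes lay above 0 and 0 of the 4 passed, and after the correction for length and GC content 2 of the 4 lay below 0. In Atr and Chek2 blebbistatin 1 was the highest library, at 41.5 and 32.3 TPM, while blebbistatin 2 was the lowest library of all 6 in both genes.

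Junction nucleases cut branched DNA: MUS81 with its partner EME1, GEN1, and the scaffold SLX4 that holds several of them. Mus81 (chromosome 19, 5482345 to 5488402) had 17.9, 20.4 and 18.95 TPM with blebbistatin and 22.3, 24.2 and 23.8 TPM with vehicle. Eme1 (chromosome 11, 94644996 to 94653964) had 34.1, 34.3 and 33.05 TPM with blebbistatin and 36.8, 37.1 and 39.7 TPM with vehicle. In both partners all blebbistatin libraries stood below all vehicle libraries, and neither gene passed. The log2 fold change was -0.29 for Mus81 (SE 0.08, limma, adjusted p = 0.107) and -0.16 for Eme1 (SE 0.06, adjusted p = 0.189). Their ratio was 0.564 ± 0.035 with blebbistatin and 0.620 ± 0.029 with vehicle. Exons of Lrrc59 and Mrpl27 on the opposite strand cover 10.7% of the exon length of Eme1, and Lrrc59 averaged 166.9 ± 19.5 TPM with blebbistatin and 207 ± 8.92 TPM with vehicle.

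Slx4, the nuclease gene with the highest level, had 50.3, 38.4 and 50.2 TPM with blebbistatin and 49.7, 52.1 and 48.7 TPM with vehicle. Only blebbistatin 2 stood apart, below the other 5 libraries (log2 fold change -0.12, SE 0.11, limma, adjusted p = 0.521). Gen1 averaged 27.4 ± 3.41 TPM with blebbistatin and 25.4 ± 1.49 TPM with vehicle, with overlapping groups.

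The blebbistatin libraries differed among themselves more than the vehicle libraries did, over all tested genes as well as in the repair genes. The first principal component over all tested genes, the axis of largest variation, was -30.5, -0.2 and -14.5 for blebbistatin 1, 2 and 3. For vehicle 1, 2 and 3 it was 15.5, 13.4 and 16.4. The coefficient of variation was larger with blebbistatin in 27 of the 37 genes, with a median over genes of 9.27% with blebbistatin and 5.76% with vehicle. Blebbistatin 1 held the highest value of the 6 libraries in 17 genes, and blebbistatin 2 held the lowest in 13. Compared with the vehicle mean, 29 genes were higher in blebbistatin 1, 10 in blebbistatin 2 and 17 in blebbistatin 3. The summed level of the 37 genes was 1178, 1038 and 1084 TPM with blebbistatin and 1094, 1117 and 1129 TPM with vehicle, so blebbistatin 1 lay above and blebbistatin 2 and 3 below all vehicle libraries.

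The direction of a repair gene went with the GC content of its transcripts. Among the 10 genes with a GC content of at least 50%, 1 log2 fold change lay above 0 (Rad51d) and the median was -0.14. Among the 27 genes under 50%, 20 lay above 0 and the median was 0.03. Rad52, at 49.97%, lay just under that limit with a log2 fold change of 0.15. Pearson's r between log2 fold change and GC content was -0.59 and Spearman's rho -0.51 across the 37 genes, which share the same 6 libraries and are not independent replicates, and over all tested genes r was -0.38. Against the vehicle mean, 26 of the 27 low-GC genes were higher in blebbistatin 1, 7 in blebbistatin 2 and 14 in blebbistatin 3, with r of -0.66, -0.15 and -0.48.

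When length and GC content were corrected for within each library, r was 0.13 across the repair genes. Of their log2 fold changes 28 of 37 lay below 0, beside 6953 of 13317 genes corrected. The median was -0.08, beside -0.01 over all tested genes. Among the lists described below, 33 of 44 further recombination genes, 18 of 21 checkpoint mediators, 37 of 38 replication genes and 23 of 24 mitosis genes then lay below 0. Of 11 end joining genes 2 did. Fanca stayed the lowest of the repair genes at -0.34. Mus81 then stood at -0.18, Xrcc3 at -0.08 and Fance at 0.03, against -0.29, -0.22 and -0.17 without the correction. Rad51d stood at 0.23 and Rad51b at 0.16. The part of GC content in these differences was not tested further.

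**Figure D3:**
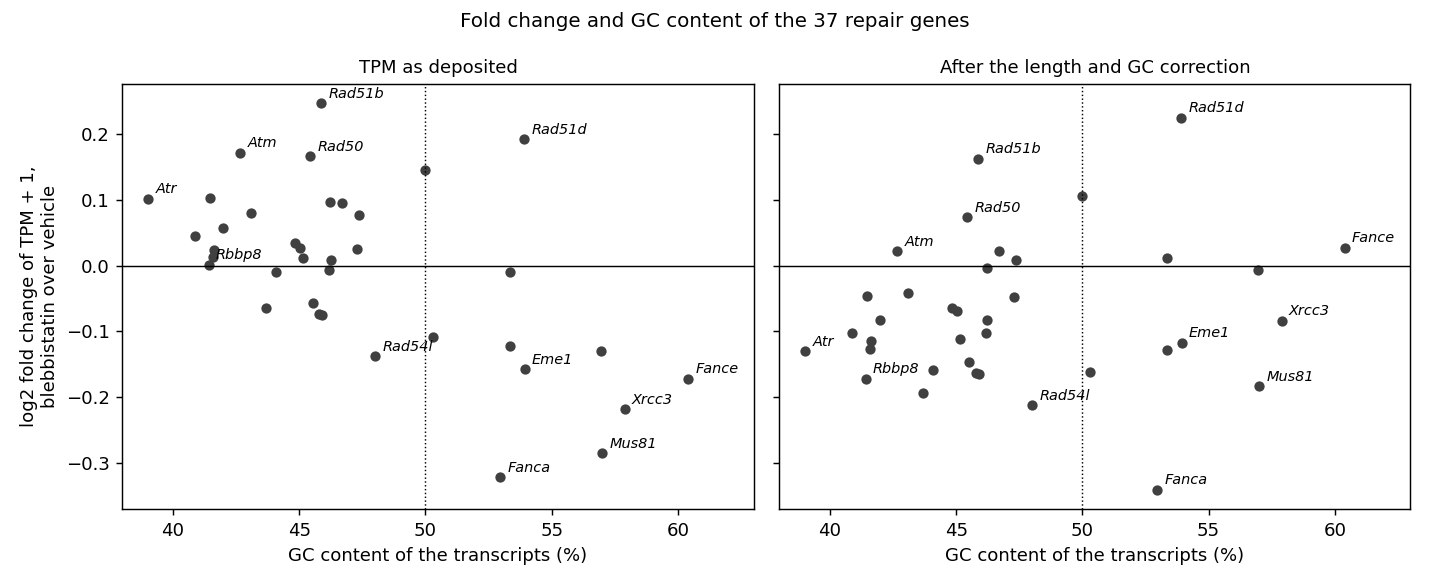
Log2 fold change of TPM + 1, blebbistatin over vehicle, of the 37 repair genes against the GC content of their transcripts in percent, from TPM as deposited (left panel) and after a correction for length and GC content (right panel). On the left 1 of the 10 genes at 50% or more lies above 0 and r is -0.59, and on the right r is 0.13 while Fanca stays lowest.

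Other genes of the pathways were read from fixed lists. Of 44 further recombination and crosslink repair genes tested, 0 passed, 19 log2 fold changes lay above 0 and the median was -0.04. Those with the highest levels were Swi5, a recombination accessory factor (346.5 ± 25.4 TPM with blebbistatin and 330.3 ± 34.2 TPM with vehicle), and Rpa1, which coats single-stranded DNA (177.7 ± 3.73 and 186 ± 10.2 TPM). Of 21 checkpoint mediators 0 passed (median -0.03), and Tipin, a fork protection factor, averaged 235.6 ± 15.8 TPM with blebbistatin and 219 ± 11.2 TPM with vehicle, and Topbp1, an activator of ATR, 176 ± 10.2 and 180.5 ± 4.40 TPM. Of 11 genes of non-homologous end joining, the competing repair route, 0 passed (median 0.05), and Xrcc6, the KU70 subunit that binds broken ends, averaged 74.98 ± 4.26 TPM with blebbistatin and 72.4 ± 2.67 TPM with vehicle, and its partner Xrcc5 51.3 ± 2.64 and 50.4 ± 1.79 TPM.

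Replication genes, which peak in S phase as many repair genes do, lay lower as a list. Of 38 tested, 0 passed, 32 log2 fold changes lay below 0, the median was -0.09 and 18 had groups that did not overlap, all lower with blebbistatin, against 13.0% of all tested genes. Their summed level was 5697 to 5742 TPM with blebbistatin and 6201 to 6349 TPM with vehicle. Pcna, the replication clamp, had 842, 839 and 810.4 TPM with blebbistatin and 952, 944 and 937 TPM with vehicle (log2 fold change -0.19, SE 0.04, limma, adjusted p = 0.0780). Rrm2, a subunit of ribonucleotide reductase, averaged 527.9 ± 13.1 TPM with blebbistatin and 589.5 ± 9.25 TPM with vehicle. Of 24 mitosis genes 1 passed, lower with blebbistatin, as did 0.426% of all tested genes. It was Cdca8, a chromosomal passenger subunit, which fell to 137 ± 6.34 TPM with blebbistatin, against 169 ± 2.94 TPM with vehicle (limma, adjusted p = 0.0451). The median of the mitosis list was -0.04, and the groups did not overlap in 11 of the 24 genes (45.8%), 10 lower and 1 higher with blebbistatin. Among the 37 repair genes they did not overlap in 16.2%, with 4 genes lower. Of all tested genes 31.0% did not overlap, 18.0% higher and 13.0% lower. After the correction for length and GC content the median was -0.135 for the replication list and -0.138 for the mitosis list. For the repair genes it was then -0.08, with 28 of 37 below 0, and over all tested genes -0.01. By median, the repair genes thus lay nearer to the replication list after the correction than before it. They did not lie nearer to the mitosis list. The difference between the lists was not tested.

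Of 29 targets of p53 tested, a list known from earlier results to be higher here, 14 rose and 0 fell (1.40% of all tested genes rose) and the median was 0.48. Ercc5, a nuclease of nucleotide excision repair, rose to 33.6, 32.2 and 32.9 TPM with blebbistatin, against 17.7, 16.95 and 18.0 TPM with vehicle (log2 fold change 0.87, SE 0.06, limma, adjusted p = 0.00790). Plk2, a stress-induced kinase, rose to 18.6 ± 0.662 TPM with blebbistatin, against 7.51 ± 0.362 TPM with vehicle, and Trp53inp1, a cofactor of p53, to 149 ± 15.3 TPM, against 67.5 ± 3.89 TPM with vehicle (limma, adjusted p = 0.00790 for each). No repair gene of the 37 reached a change of that size, and the highest upper bound among their intervals was 0.51, for Rad51b.

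**Figure D4:**
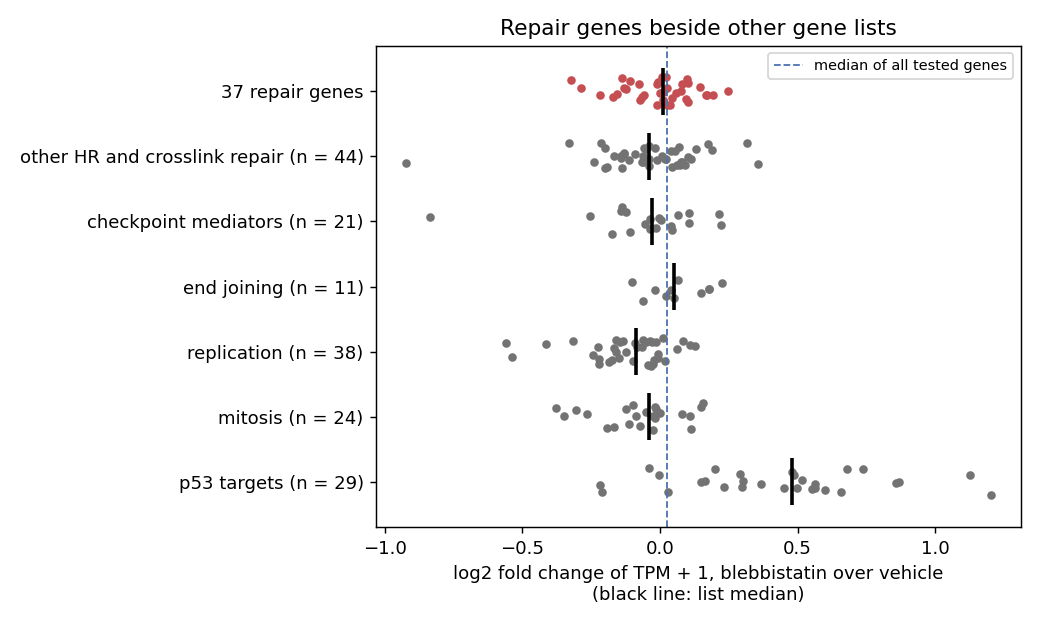
Log2 fold change of TPM + 1, blebbistatin over vehicle, of the 37 repair genes (red) and of tested genes of other lists (grey), with the median of each list as a black line and that of all tested genes as a dashed line. The repair genes are centred near 0 within -0.32 and 0.25, while the p53 targets have a median of 0.48.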

How the data were processed

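RNA of 3 blebbistatin and 3 vehicle libraries of activated CD8+ T cells was sequenced on an Illumina NovaSeq instrument from TruSeq RNA libraries, per the labels' protocols. The tools named in the submitters' processing notes are StringTie 1.3.4, HISAT2 2.1.0 and DESeq2 1.22.2, and the build is mm10. Which tool did which step is not stated there. The authors deposited TPM, which sums to 1000000 per library, FPKM, and coverage, the mean read depth over a gene (a signal with no normalization). No counts were given, so no count test was run. Fragments were implied from coverage, taking the commonest number of aligned bases in low genes, 300, as 1 fragment. Fragment numbers give the counting error only.

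The 13372 genes that averaged 1 TPM or more were compared on log2(TPM + 1) with limma 3.58.1 in R 4.3.3, with its trend option, and p-values were adjusted over all of them by Benjamini-Hochberg. Fold changes on this scale understate changes of low genes. The method was checked on simulated data. GENCODE's GRCm38 annotation gave lengths, GC content (for 99.6% of tested genes) and exon overlaps. The correction for length and GC content subtracted a loess surface (span 0.5) from each library. Values in every library are given for the 4 genes with the smallest p in each direction and the highest gene of each role, 12 genes in all. The 37 genes and all lists were chosen with earlier results of these data known. Alternatives were the pseudocount, the minimum level, FPKM, scaling, limma options, a replicate block, gene type, the correction and leaving out each library. Coverage in place of TPM was added after the data were seen. Figures were drawn with matplotlib 3.10.9.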

Additional observations from a re-analysis of the deposited data

How the results depend on the processing

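The count of repair genes past the threshold was 0 in 17 of 21 alternatives. It was 1, Fanca, among protein-coding genes alone and after the length and GC correction, ran from 0 to 1 over the fits that leave out 1 library (1 without blebbistatin 2, again Fanca), and was 6 with array weights. The estimate of the array weights stopped before it converged and gave blebbistatin 3 a weight of 7.26. Between 35 and 37 intervals lay within 1.5-fold in every alternative. The median of the repair genes moved to -0.0835 with the length and GC correction and ran from -0.04 to 0.05 over the fits without 1 library. It was also below 0 with median-ratio scaling (-0.02), quantile scaling (-0.02) and array weights (-0.01), so its sign depended on the setting.

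Near 0, signs changed. Brca1 was at -0.0030 after the correction. Rad51ap1 was at 0.0627 and Fancd2 at 0.0305 with array weights, and Fancd2 at 0.0451 with coverage in place of TPM. Without 1 library, Rad51ap1 ran from -0.137 to 0.0851, Fancd2 from -0.0458 to 0.0588 and Slx4 from -0.19 to 0.0034. The other 8 genes given in full kept their direction in every alternative that tested them, though they were chosen for small p or high level in these libraries. Over all genes, 244 passed, against 49 with no minimum level, 160 with no trend, 549 with the correction (306 higher and 243 lower), 4184 with array weights and between 3 (without blebbistatin 3) and 1090 (without blebbistatin 2) without 1 library. Without vehicle 1, 2 and 3 it was 13, 11 and 7, and without blebbistatin 1 it was 120. The share of higher genes was 76.6%, and 55.7% with the correction.

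With replicate number as a block, 0 genes passed. The labels do not say that the numbers pair libraries, so the block was an alternative only. Deviations of same-numbered libraries from their group means correlated at 0.011, -0.037 and -0.034, which cannot exclude pairing with so few libraries. Depth limits Fancc, Fancf, Rad51b and Rad51c, which had under 200 fragments in at least 1 library. A p above the threshold does not show that a gene did not change.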

Other observations

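2 genes of the wider lists, named here after their values were seen, varied widely between libraries. Others did so too, such as Fen1 of the replication list, with 44.8, 60.8 and 129.2 TPM with blebbistatin and 141.5, 55.3 and 146.2 TPM with vehicle. H2afx, the histone variant that is phosphorylated around breaks, had 44.5, 130.7 and 71.4 TPM with blebbistatin and 138.6, 123.7 and 140.5 TPM with vehicle. Blebbistatin 1 and 3 stood far below the other libraries while blebbistatin 2 stood among the vehicle values (log2 fold change -0.83, SE 0.34, limma, adjusted p = 0.2004). Fignl1, an ATPase of recombination repair, had 81.6, 18.9 and 22.7 TPM with blebbistatin and 40.6, 79.1 and 78.95 TPM with vehicle, so high and low libraries occurred in both groups (log2 fold change -0.92, SE 0.54, limma, adjusted p = 0.339).

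Faap24, a DNA-binding partner of FANCM, had 27.4, 28.3 and 30.5 TPM with blebbistatin and 22.9, 20.3 and 23.5 TPM with vehicle, and Wrn, a helicase of the RECQ family, had 28.6, 22.8 and 26 TPM with blebbistatin and 19.9, 19.95 and 21.5 TPM with vehicle. Both were higher without overlap and neither passed (log2 fold change 0.36, SE 0.08, limma, adjusted p = 0.0825 for Faap24, and 0.32, SE 0.09, adjusted p = 0.127 for Wrn). These genes too are named after their values were seen. Among the 44 further recombination and crosslink repair genes tested, 2 lay higher without overlap, these 2, and 7 lay lower. Of all tested genes, 18.0% lay higher and 13.0% lower without overlap. The 7 lower genes include Helq (29.8 ± 0.758 TPM with blebbistatin and 35.5 ± 2.33 TPM with vehicle) and Faap100 (8.93 ± 0.775 and 11.5 ± 0.830 TPM). Neither passed (log2 fold change -0.24, limma, adjusted p = 0.121 for Helq, and -0.33, adjusted p = 0.125 for Faap100).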
